A study of Mus musculus with 6 samples.

Results

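Cytochrome c oxidase, complex IV of the mitochondrial respiratory chain, is built from a catalytic core encoded in mitochondrial DNA and a shell of small subunits encoded in the nucleus. The 10 genes described here are the nuclear subunit genes Cox4i1, Cox5a, Cox5b, Cox6a1, Cox6b1, Cox6c, Cox7a2, Cox7b, Cox7c and Cox8a, chosen by gene name from the 25491 genes of the deposited table, in which each had 1 row. The complex takes electrons from reduced cytochrome c, passes them to oxygen to make water, and pumps protons across the inner mitochondrial membrane. Its nuclear subunits stabilise and tune the core, and cells must match their supply to that of the mitochondrially encoded subunits. In marrow stroma, oxidative metabolism is known to increase as progenitors differentiate towards bone.

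RNA was measured in mesenchymal progenitor cells, the marrow stromal cells that give rise to bone, cartilage and fat, sorted as CD45-TER119-CD31-CD44-CD51+SCA1-. The comparison is of 3 libraries of Lama4-/- cells, in which the gene for laminin alpha 4, a basement membrane chain, is deleted, with 3 libraries of wild type cells. All mice were C57BL/6J, 14 weeks old, and had received a sublethal radiation dose of 7 Gy 6 weeks before the sort, so both genotypes are irradiated. Whether the 6 libraries stand for 6 mice is not stated in the labels, so the p-values below measure the spread between libraries, which may be technical.

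The Lama4-/- libraries held 12979711 to 15663957 counts and the wild type libraries 6263830 to 13409177, with wild type replicate 2 the shallowest. Lama4 itself had 0 counts in each Lama4-/- library, where a floor of 3 counts per library applies, and 607, 236 and 438 counts in the wild type libraries. Transcripts of the gate were at 59.2 ± 14.3 CPM in Lama4-/- and 114 ± 22.5 CPM in wild type for Itgav (CD51), and at 0.727 ± 1.26 CPM in Lama4-/- and 1.82 ± 2.08 CPM in wild type for Ptprc (CD45) (SD, n = 3 each). Cd44 RNA was present, at 63.6 ± 16 CPM in Lama4-/- and 121 ± 43.8 CPM in wild type (SD, n = 3 each), although the cells were sorted as CD44 negative. The log2 fold changes were -0.94 for Itgav and -0.92 for Cd44, and -0.12 for Itgav and -0.32 for Cd44 with a trend of fold change on transcript length removed. CPM is the count of a gene relative to its library's total, after scaling of the totals for composition. The 12 stroma markers summed to 61460 to 150200 CPM in Lama4-/- and 103100 to 126500 CPM in wild type. Of these 12, 2 had a positive log2 fold change and 7 an unadjusted p under 0.05, all 7 lower in Lama4-/-, where 8.34% of all tested genes were. Their median log2 fold change was -0.95, and -0.42 with the length trend removed. The longest transcripts of these markers had a median of 5584 bases, against 3124 over all tested genes. With the length trend removed, Acan, Runx2, Lepr, Pdgfrb and Sox9 kept an unadjusted p under 0.05 in edgeR, where 8.11% of all tested genes had one. In DESeq2, an alternative test, 6 of the 12 passed an adjusted p of 0.05, all lower in Lama4-/-, beside 4.64% of all genes with an adjusted p.

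Among the 10 subunits, promoter windows of 8 were found in RefSeq (build GRCm38.p6, 250 bases before to 50 bases after the start). Stretches of 3 of them are shown as examples, and other windows carried elements searched for too. Nuclear respiratory factor 1 (NRF1) and the ETS factor GABP are known activators of respiratory subunit genes, and Sp1 binds GC boxes. Capitals mark the full NRF1 element (within the 2 longest runs of capitals in Cox6a1), the NRF1 palindrome TGCGCA and the GC box GGGCGG, on either strand. Each stretch begins 170 bases before the RefSeq start and ends before the first annotated transcript base in RefSeq or GENCODE.
Cox6a1 (chr5:115348982-115349128, GRCm38.p6, minus strand): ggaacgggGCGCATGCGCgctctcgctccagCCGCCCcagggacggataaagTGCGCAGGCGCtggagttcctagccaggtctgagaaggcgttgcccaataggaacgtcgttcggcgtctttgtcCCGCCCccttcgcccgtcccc
Cox5b (chr1:36691317-36691448, GRCm38.p6, plus strand): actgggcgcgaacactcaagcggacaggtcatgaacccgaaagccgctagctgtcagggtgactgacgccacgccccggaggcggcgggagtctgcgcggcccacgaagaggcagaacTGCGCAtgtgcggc
Cox5a (chr9:57521062-57521231, GRCm38.p6, plus strand): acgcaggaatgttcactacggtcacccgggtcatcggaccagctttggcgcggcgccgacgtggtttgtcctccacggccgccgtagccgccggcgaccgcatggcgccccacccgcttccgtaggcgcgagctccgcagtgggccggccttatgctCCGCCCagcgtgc
The full NRF1 element was found in 1 of the 8 windows, that of Cox6a1, and in 10.3% of the windows of tested genes. The palindrome TGCGCA, which in Cox6a1 overlaps the second full match, was found in 2 windows, of Cox5b and Cox6a1, and in 14.3% of windows of tested genes. The ETS core CCGGAAG was found in 3 windows, of Cox6a1, Cox6b1 and Cox8a, and in 17.9%. The GC box GGGCGG was found in 3 windows, of Cox5a, Cox6a1 and Cox7a2, and in 64.7%. The YY1 core GCCATNTT was found in 1, that of Cox7b, and in 8.54%, and the letters CCAAT in 4, of Cox6a1, Cox6b1, Cox7b and Cox8a, and in 38.7%. A match is a description of the letters in the window and not a binding site shown here.

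All 10 subunits passed the filter on low counts and were tested. Each had a positive log2 fold change, Lama4-/- over wild type, against 48.0% of all tested genes. Their median log2 fold change was 0.39, beside -0.04 over the 14465 genes tested. None of the 10 passed an adjusted p of 0.05 in edgeR's quasi-likelihood test, where 0.00691% of all genes, Lama4 alone, did. At an unadjusted p under 0.05, which 12.8% of all tested genes reached, there were 2 subunits, Cox4i1 and Cox5a, both on the higher side, where 4.45% of all tested genes were. In the same 2 genes every Lama4-/- library lay above every wild type library, a pattern shown by 10.3% of all tested genes. DESeq2 likewise put 0 of the 10 past an adjusted p of 0.05, beside 4.64% of all genes with an adjusted p. Limma voom put 0 of the 10 past it, and also 0 of all 14465 tested genes. The authors' deposited table lists DESeq2 adjusted p-values from 0.145 for Cox4i1 to 0.92 for Cox5b. Of its genes with an adjusted p, 6.63% were under 0.05.

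Cox4i1 and Cox5a encode the nuclear subunits that join the core subunit Co1 first during assembly, as known from human cells. Cox4i1 (chromosome 8, 120668222 to 120674207, plus strand, GRCm38) was at 307, 253 and 305 CPM in the Lama4-/- libraries, against 215, 142 and 219 CPM in the wild type libraries. The groups did not overlap, and wild type replicate 2 was the lowest library. The log2 fold change was 0.59 (SE 0.22, edgeR adjusted p = 0.334, between 0.177 and 0.779 over the alternative settings). Cox4i1 shares exon positions with Emc8 on the opposite strand, which was at 40.5 ± 12.6 CPM in Lama4-/- and 33.7 ± 4.32 CPM in wild type (SD, n = 3 each), and the library kit does not mark strand. Cox5a (chromosome 9, 57521274 to 57532426, plus strand) was at 42.9, 39.6 and 34.3 CPM in Lama4-/-, against 28.9, 25.9 and 20.4 CPM in wild type. It was the subunit with the largest fold change, and its lowest wild type library was replicate 3 rather than replicate 2. The log2 fold change of Cox5a was 0.64 (SE 0.26, edgeR adjusted p = 0.375, between 0.200 and 0.898 over the alternatives). Gm26631, a noncoding gene on the opposite strand whose exons overlap those of Cox5a, reached 2.40 CPM at most.

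Cox5b (chromosome 1, 36691449 to 36693681, plus strand) encodes a zinc-binding subunit on the matrix side. It was at 30.0, 24.4 and 30.6 CPM in Lama4-/-, against 34.7, 17.6 and 27.9 CPM in wild type, and the groups overlapped over most of their range. Its log2 fold change of 0.08 (SE 0.32, edgeR adjusted p = 0.946) was the smallest of the 10. Cox6b1 (chromosome 7, 30616861 to 30626151, minus strand) encodes a subunit on the side of the intermembrane space, near the docking site of cytochrome c. Cox6b1 was at 149, 114.5 and 143 CPM in Lama4-/-, against 131, 70.4 and 106 CPM in wild type. Wild type replicate 1 lay within the Lama4-/- range, so the groups overlapped. The log2 fold change of Cox6b1 was 0.40 (SE 0.26, edgeR adjusted p = 0.59). Cox6a1 (chromosome 5, 115345642 to 115348981, minus strand), the ubiquitous form of a regulatory subunit whose other form is made in heart and skeletal muscle, was the most abundant of the family per length. Cox6a1 was at 246, 219 and 249 CPM in Lama4-/-, against 230, 125 and 167 CPM in wild type, with wild type replicate 1 alone reaching into the Lama4-/- range. Its log2 fold change was 0.45 (SE 0.24, edgeR adjusted p = 0.502).

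The remaining 5 genes encode small subunits with a single span across the inner membrane. Cox6c lies on chromosome 15 (35925886 to 35938246), Cox7a2 on chromosome 9 (79755361 to 79759878), Cox7c on chromosome 13 (86044816 to 86046904) and Cox8a on chromosome 19 (7215153 to 7217616), all on the minus strand, and Cox7b on the plus strand of chromosome X (106015700 to 106022450). Cox6c was at 134, 107 and 100 CPM in Lama4-/-, against 111, 57.2 and 98.6 CPM in wild type. Cox7a2, the ubiquitous form of subunit 7a, was at 126, 89.35 and 114 CPM in Lama4-/-, against 108, 54.6 and 97.4 CPM in wild type. Cox7b was at 76.9, 53.25 and 69.9 CPM in Lama4-/-, against 73.7, 27.7 and 52.5 CPM in wild type. In these 3 genes Lama4-/- replicate 1 was highest and wild type replicate 2 lowest, and the groups overlapped. Cox7c was counted at 10.4, 9.78 and 6.46 CPM in Lama4-/-, against 6.96, 5.14 and 7.18 CPM in wild type. Cox8a was at 153, 111 and 134 CPM in Lama4-/-, against 156.5, 80.5 and 121 CPM in wild type. Both overlapped between genotypes, and in Cox8a the highest library was wild type replicate 1. The log2 fold changes of the 5 ran from 0.15 for Cox8a (SE 0.27) to 0.47 for Cox7c (SE 0.49), with edgeR adjusted p-values from 0.667 to 0.872. Cox6c overlaps exons of Vps13b on the opposite strand, which was at 16.3 ± 5.21 CPM in Lama4-/- and 29.9 ± 12.6 CPM in wild type (SD, n = 3 each).

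**Figure D1:**
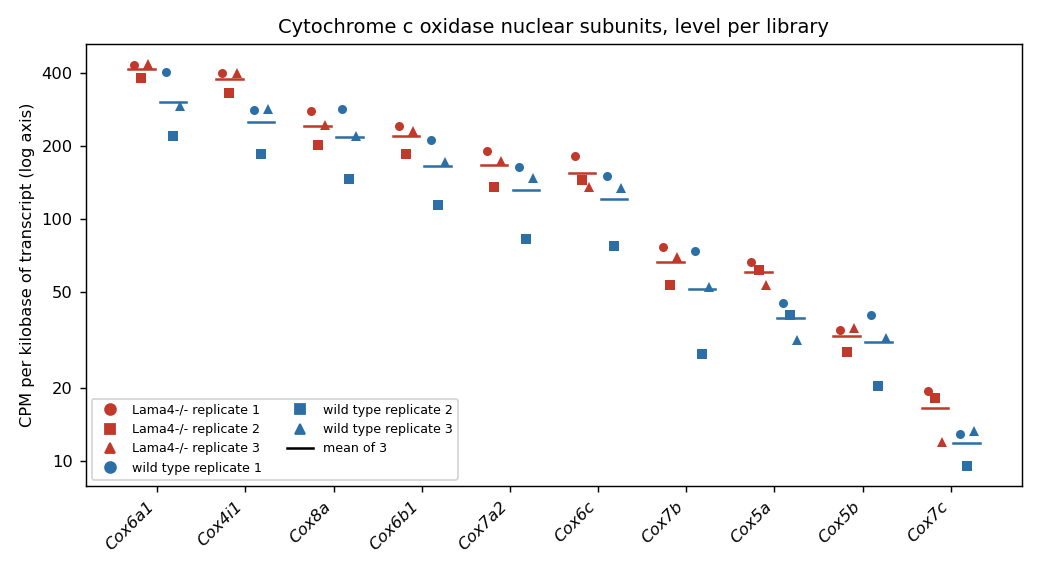
Level of each of the 10 nuclear subunits in each library, in CPM per kilobase of the principal transcript on a log axis, ordered from Cox6a1 to Cox7c; points are libraries, with a symbol for each replicate number, and bars are means of 3. Lama4-/- libraries (red) and wild type libraries (blue) overlap in all genes but Cox4i1 and Cox5a, and wild type replicate 2 (blue square) is lowest in 9 of the 10.

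Per kilobase of transcript, Cox6a1 was highest, at 417 ± 29.4 CPM per kilobase in Lama4-/- and 305 ± 92.5 in wild type, and Cox7c lowest, at 16.5 ± 3.95 in Lama4-/- and 11.9 ± 2.07 in wild type (SD, n = 3 each). Between them the order of mean levels was Cox4i1, Cox8a, Cox6b1, Cox7a2, Cox6c, Cox7b, Cox5a and Cox5b. The steps from Cox6a1 to Cox4i1, Cox8a to Cox6b1, Cox6b1 to Cox7a2, Cox6c to Cox7b and Cox5b to Cox7c were seen in all 6 libraries. Cox7b and Cox5a were ordered this way in 4 of 6 libraries, and Cox4i1 and Cox8a, Cox7a2 and Cox6c, and Cox5a and Cox5b in 5 of 6. The counts of some members depend on sequence shared with other genes. Of the 75-base windows of the Cox7c transcript, 50.4% occur unchanged in annotated transcripts of Gm10012 or Gm12338, while no window of Cox6b1, Cox7a2, Cox7b or Cox8a occurs in another gene. The share was 21.7% for Cox5a, 17.2% for Cox5b, 11.6% for Cox4i1, 10.7% for Cox6c and 6.44% for Cox6a1. How reads with several matches were counted is not given in the sources used here, so the low level of Cox7c per length is uncertain.

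The libraries ranked much alike in most of the subunits. Wild type replicate 2 held the lowest value of 9 of the 10 subunits, where it was the lowest library in 15.3% of all tested genes. Lama4-/- replicate 1 held the highest value of 7, a count for which the share over all tested genes was not computed. Summed over the 10 genes, the level was 1276, 1020 and 1187 CPM in Lama4-/-, against 1096, 606 and 917 CPM in wild type. Wild type replicate 1 thus lay above Lama4-/- replicate 2. Measured as the root mean square difference over the 6 libraries between a gene's centred log2 CPM and the mean profile of the 10, Cox6b1 lay closest to that mean (0.06) and Cox5a farthest (0.31), followed by Cox7c (0.24) and Cox7b (0.19). Of the 2845 genes outside the family with a mean of at least 50 CPM, the 5 closest by the same measure were Rps3a1 (0.05), Fxyd1 (0.07), Uqcrfs1 (0.07), Rps3 (0.07) and Park7 (0.08). Rps3a1 and Rps3 encode proteins of the small ribosomal subunit, Uqcrfs1 the Rieske protein of complex III, Fxyd1 a regulator of the sodium pump and Park7 the redox protein DJ-1. With wild type replicate 2 left out, the median log2 fold change of the 10 subunits was 0.15, against -0.02 over all tested genes, and 8 of 10 stayed positive, against 48.7% of all genes. Cox8a was then at -0.06 and Cox5b at -0.14, while Cox5a was at 0.66 and Cox4i1 at 0.41 (edgeR adjusted p = 0.44 and 0.391, with 2 wild type libraries taken to vary like the others).

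**Figure D2:**
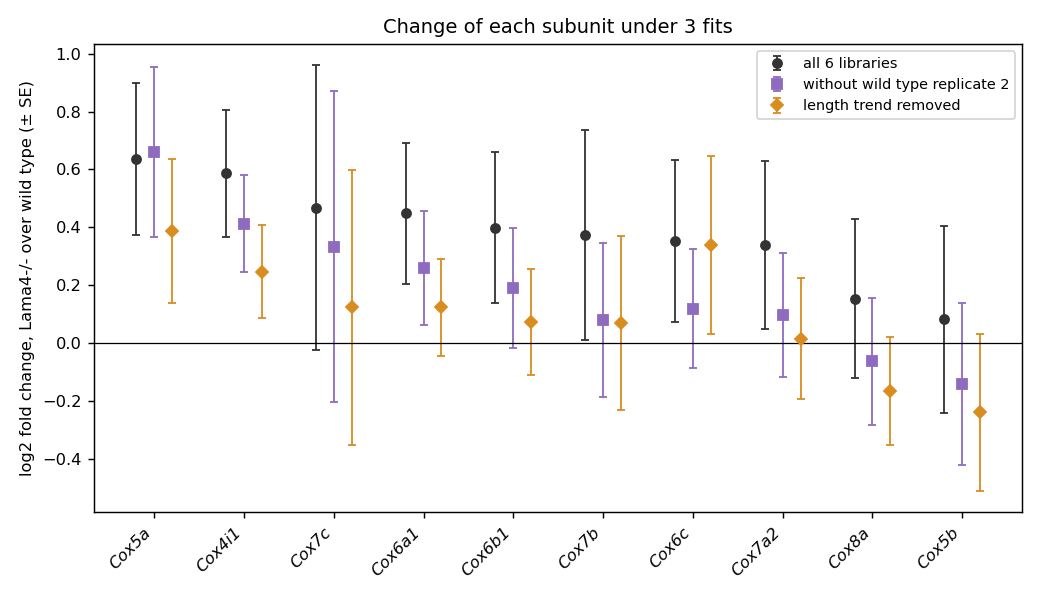
Log2 fold change of each subunit, Lama4-/- over wild type, with its standard error, from the fit of all 6 libraries, the fit without wild type replicate 2 and the fit with the length trend removed. Cox5a and Cox4i1 have the highest values with all libraries, at 0.64 and 0.59, and Cox8a and Cox5b lie below 0 in the other fits.

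Fold changes in these libraries moved with transcript length, and the subunit transcripts are short. The longest annotated transcript of the 10 genes had a median of 737 bases, against 3124 bases over all tested genes. Sorted by that length, 8 of the 10 fell into the first of 10 equal classes, whose median log2 fold change was 0.34, against -0.925 in the last. The other 2, Cox5a and Cox6c, have longer annotated transcripts of 1818 and 3038 bases. Of the 10 subunits, 7 lay above the median of their own length decile. There were 631 tested genes whose principal transcript was as long as those of the subunits, 540 to 1001 bases. Their median was 0.38, beside the subunits' median of 0.39, and 79.7% of them were positive. Of these 631, 155 had every Lama4-/- library above every wild type library, and 68 an unadjusted p under 0.05 on the higher side. The subunits had 2 of 10 on each of these counts. With the length trend of each library removed, the median of the 10 was 0.10, beside 0.02 over all tested genes, and 8 of 10 were positive, against 51.4%. Cox5a was then at 0.39 (SE 0.25), Cox6c at 0.34 (SE 0.31) and Cox4i1 at 0.25 (SE 0.16), while Cox8a was at -0.17 and Cox5b at -0.24. The values of Cox5a and Cox6c rest on their longest transcripts. With the trend taken over principal transcripts, of 645 bases for Cox5a and 738 bases for Cox6c, Cox5a was at 0.26, Cox6c at 0.04 and Cox4i1 at 0.25, an alternative chosen after seeing the data. No subunit had an unadjusted p under 0.05 in either fit, against 8.11% of all tested genes over longest transcripts and 1174 of 14465 over principal transcripts.

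**Figure D3:**
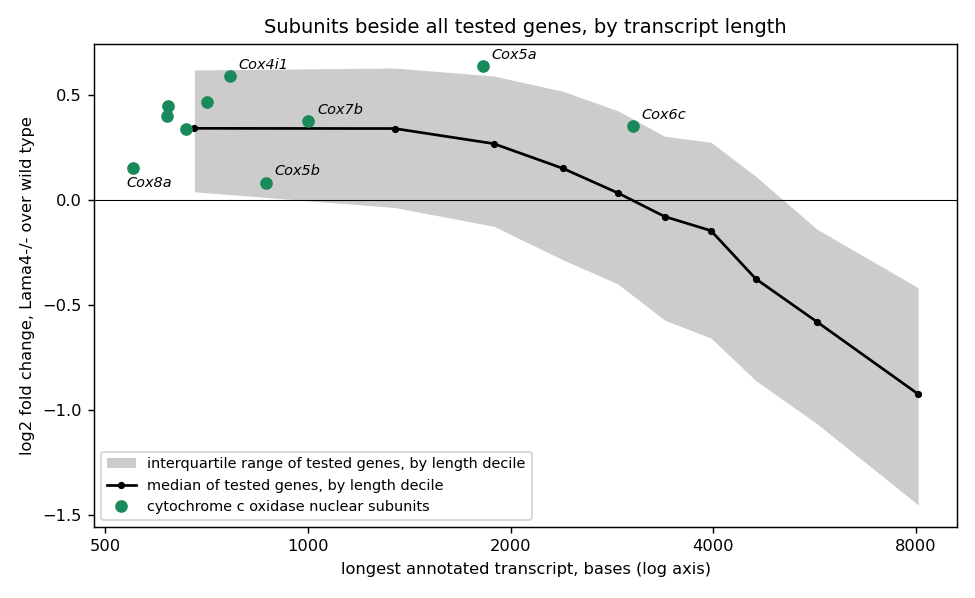
Log2 fold change, Lama4-/- over wild type, against the longest annotated transcript in bases on a log axis; the black line joins the medians of the 10 length deciles of all tested genes, the grey band is their interquartile range, and green points are the 10 subunits. 8 subunits lie in the shortest decile, whose median is 0.34, and Cox5a and Cox6c lie above the medians of longer deciles.

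The mitochondrially encoded part of the enzyme had its lower mean in Lama4-/-. Of the 3 core subunits, only mt-Co1, the catalytic subunit that holds haem a and the oxygen-reducing centre, was analysed here. mt-Co1 was at 1651, 909 and 1454 CPM in Lama4-/-, against 2739, 900 and 3427 CPM in wild type. Wild type replicates 1 and 3 were above all Lama4-/- libraries and wild type replicate 2 was below them. The log2 fold change of mt-Co1 was -0.82 (SE 0.48, edgeR adjusted p = 0.531), and -1.20 without wild type replicate 2 (adjusted p = 0.250). The ratio of mt-Co1 to the summed CPM of the 10 nuclear subunits was 1.29, 0.891 and 1.23 in Lama4-/-, against 2.50, 1.49 and 3.74 in wild type, so every Lama4-/- library lay below every wild type library in this ratio, a comparison chosen after the values were seen and not tested. Of the mt-Co1 windows of 75 bases, 39.8% also occur in transcripts of the nuclear genes Gm29216 or Gm13340. The other mitochondrially encoded mRNAs tested, of complexes I and III, were all 7 negative, with a median of -0.97. Of all tested genes, 48.0% were positive. Among the 7, 3 had an unadjusted p under 0.05 in edgeR, where 8.34% of all tested genes were on the lower side. None of the 7 had every Lama4-/- library below every wild type library, a pattern shown by 1733 of all 14465 tested genes. In each, wild type replicate 2 lay within the Lama4-/- range or below it. In mt-Nd4, a complex I subunit gene, this library was at 269 CPM, against 202 to 419 CPM in Lama4-/-. Of the 7, 0 passed edgeR's adjusted p. mt-Nd4 passed DESeq2's (adjusted p = 0.0472), beside 4.64% of all genes with an adjusted p there.

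**Figure D4:**
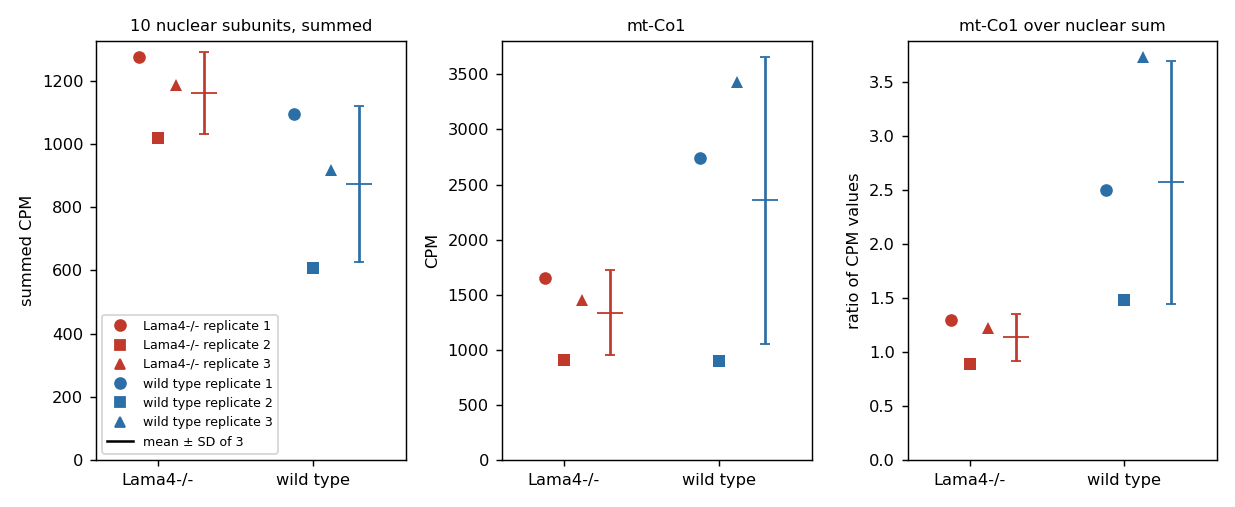
Summed CPM of the 10 nuclear subunits, CPM of mt-Co1, and the ratio of mt-Co1 to the nuclear sum, for each Lama4-/- and wild type library; symbols mark replicate numbers and bars are the mean ± SD of 3. The nuclear sum and mt-Co1 overlap between genotypes, while the ratio is 0.891 to 1.29 in Lama4-/- and 1.49 to 3.74 in wild type.

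Several subunits have isoforms with a restricted pattern of expression. Cox4i2, the form of subunit 4 known from lung and smooth muscle and for oxygen sensing, was at 42.9, 82.2 and 94.3 CPM in Lama4-/-, against 49.1, 49.7 and 46.0 CPM in wild type. Its 3 wild type values lay close together, and Lama4-/- replicate 1 lay below all of them and the other Lama4-/- libraries above. The log2 fold change of Cox4i2 was 0.60 (SE 0.31, edgeR adjusted p = 0.477). Per length, Cox4i2 made up 12.7%, 25.3% and 24.4% of the summed Cox4i1 and Cox4i2 level in Lama4-/-, against 19.2%, 26.8% and 18% in wild type. The means differed by -0.523 percentage points (two-sided exact permutation test, p = 0.9, where 0.1 is the smallest p that 3 against 3 libraries allow). The forms known from muscle and testis were low. Cox6b2 was at 2.48 ± 1.62 CPM in Lama4-/- and 2.45 ± 1.09 CPM in wild type, and Cox7a1 at 1.14 ± 0.663 CPM in Lama4-/- and 0.822 ± 0.437 CPM in wild type (SD, n = 3 each). Cox6a2, Cox7b2, Cox8b and Cox8c did not pass the filter, each with at most 1.23 CPM in a library.

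Cox7a2l, a relative of Cox7a2 that joins complex III to complex IV and is shortened in C57BL/6 mice, was at 41.8, 26.6 and 28.5 CPM in Lama4-/-, against 45.9, 18.2 and 30.2 CPM in wild type (log2 fold change 0.04, SE 0.39). Ndufa4, named for complex I but found in complex IV, was at 115, 84.8 and 96.2 CPM in Lama4-/-, against 124, 52.6 and 83.5 CPM in wild type (0.18, SE 0.32). Both had wild type replicate 1 highest and wild type replicate 2 lowest. Ndufa4l2, the hypoxia-inducible relative of Ndufa4, was at 70.3, 126 and 79.2 CPM in Lama4-/-, against 89.45, 50.35 and 79.55 CPM in wild type (0.33, SE 0.31). Of the 10 isoforms and relatives listed, 6 were tested. All 6 were positive, against 48.0% of all tested genes, with a median log2 fold change of 0.255. None of the 6 passed edgeR's adjusted p, DESeq2's adjusted p or an unadjusted p under 0.05 in edgeR. With wild type replicate 2 left out their median was 0.015 and 3 of the 6 were positive. With the length trend removed their median was -0.044 and 3 of the 6 were positive.

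**Figure D5:**
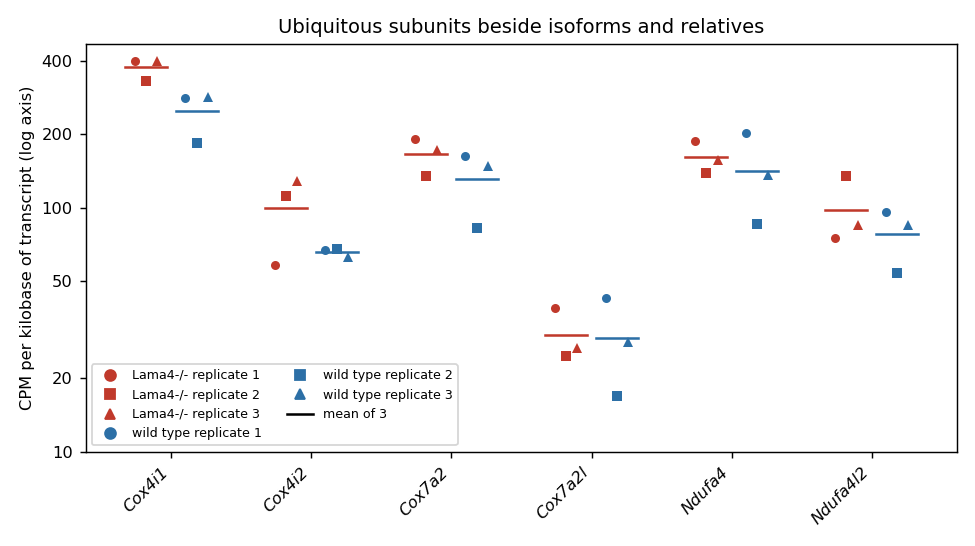
Level of the ubiquitous subunits Cox4i1 and Cox7a2 beside the isoform Cox4i2, the relative Cox7a2l, the additional subunit Ndufa4 and its relative Ndufa4l2, in CPM per kilobase on a log axis; points are libraries and bars are means of 3. Cox4i2 is spread from 58.5 to 129 CPM per kilobase in Lama4-/- and lies between 62.7 and 67.8 in wild type.

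The substrate of the enzyme, somatic cytochrome c (Cycs), was counted at 3.74 ± 1.17 CPM in Lama4-/- and 3.08 ± 0.0860 CPM in wild type, with 26.1% of its windows shared with other genes. Hccs, the lyase that attaches haem to cytochrome c, was at 27.1 ± 1.01 CPM in Lama4-/- and 28.8 ± 3.9 CPM in wild type (SD, n = 3 each). Of 28 listed assembly factors of complex IV, 24 were tested, 16 of them positive, against 48.0% of all tested genes, with a median of 0.22. With the length trend removed their median was 0.08 and 13 were positive, against 51.4% of all tested genes. Without wild type replicate 2 their median was 0.06 and 13 were positive, against 48.7% of all genes. None had an unadjusted p under 0.05 in edgeR or an adjusted p under 0.05 in edgeR or DESeq2. Higd2a, which acts on the Co3 module, was at 68.8 ± 8.12 CPM in Lama4-/- and 46.3 ± 12 CPM in wild type, and Surf1, needed for the haem a centre of Co1, at 36.2 ± 6.08 CPM in Lama4-/- and 25.4 ± 7.00 CPM in wild type (SD, n = 3 each). On the other side, Sco1, a copper chaperone for the Co2 centre, was at 3.26 ± 1.91 CPM in Lama4-/- and 9.88 ± 3.63 CPM in wild type, with a log2 fold change of -1.6 (SE 0.71, edgeR adjusted p = 0.404). Cox15, which makes haem a, was at 22.0 ± 4.09 CPM in Lama4-/- and 29.7 ± 9.17 CPM in wild type (SD, n = 3 each). The groups of Higd2a and Sco1 did not overlap, those of Cox15 did, and in Surf1 the lowest Lama4-/- and the highest wild type library were both at 31.3 CPM. Of the 24 tested, 3 had every Lama4-/- library above every wild type library, with Surf1 counted among them. This pattern was shown by 10.3% of all tested genes. The reverse pattern was shown by 1 of the 24, and by 1733 of all 14465 tested genes.

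Regulators of respiratory gene expression lay on both sides of 0. Of 14 listed, 12 were tested, 5 of them positive, against 48.0% of all tested genes, with a median of -0.08. None passed edgeR's adjusted p. At an unadjusted p under 0.05, on whose lower side 8.34% of all tested genes were, there were 2, both lower in Lama4-/-. These were Gabpb2, a beta subunit of GABP, at 5.88 ± 3.68 CPM in Lama4-/- and 23.9 ± 11 CPM in wild type, and the coactivator Pprc1, at 26.3 ± 3.9 CPM in Lama4-/- and 54.9 ± 21.8 CPM in wild type (SD, n = 3 each). Gabpb2 passed in DESeq2 (adjusted p = 0.0247), with an edgeR log2 fold change of -2.02 (SE 0.57, adjusted p = 0.254), and of -1.04 with the length trend removed. Pprc1 had a log2 fold change of -1.06 (SE 0.36), and of -0.53 with the length trend removed. In that fit neither gene kept an unadjusted p under 0.05 in edgeR's quasi-likelihood test. The other beta subunit gene, Gabpb1, was at 43.5 ± 6.94 CPM in Lama4-/- and 26.6 ± 12.1 CPM in wild type, and the nuclear receptor gene Esrra at 10.1 ± 2.99 CPM in Lama4-/- and 6.42 ± 3.06 CPM in wild type (SD, n = 3 each). In both the groups overlapped, as in Pprc1, while those of Gabpb2 did not. Gabpb2 was the 1 regulator of the 12 tested with every Lama4-/- library below every wild type library. This pattern was shown by 1733 of all 14465 tested genes. The reverse pattern was shown by 0 of the 12, and by 10.3% of all tested genes.

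The subunits are made in the cytosol and imported. Of 18 import genes, 17 were tested, 12 of them positive, against 48.0% of all tested genes, with a median of 0.41. None passed the adjusted p in edgeR or DESeq2. An unadjusted p under 0.05 in edgeR was seen for 2 on the higher side, where 4.45% of all tested genes were. It was seen for 1 on the lower side, where 8.34% of all tested genes were. Timm21, a part of the inner membrane translocase, was at 29.8 ± 5.02 CPM in Lama4-/- and 14.5 ± 5.82 CPM in wild type, and Tomm40, the outer membrane channel, at 68.2 ± 15.7 CPM in Lama4-/- and 42.9 ± 3.80 CPM in wild type (SD, n = 3 each). Chchd4, which oxidises proteins entering the intermembrane space, was at 7.79 ± 0.569 CPM in Lama4-/- and 16 ± 1.27 CPM in wild type, and the import receptor gene Tomm70a at 33.8 ± 8.69 CPM in Lama4-/- and 43.7 ± 12.2 CPM in wild type (SD, n = 3 each). The groups of Timm21, Tomm40 and Chchd4 did not overlap, and those of Tomm70a did. These 4 were named for having the smallest p in each direction. Of the 17 tested, 4 had every Lama4-/- library above every wild type library, a pattern shown by 10.3% of all tested genes. The reverse pattern was shown by 1 of the 17, and by 1733 of all 14465 tested genes.

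The other nuclear-encoded complexes stood beside the 10 subunits as follows. Complex I had 35 of 36 tested subunits positive with a median of 0.48, and 5 at an unadjusted p under 0.05, all higher in Lama4-/-. Complex III had 9 of 9 positive, a median of 0.50 and 3 at that p, and ATP synthase 16 of 17 positive, a median of 0.45 and 3 at that p. Of all tested genes, 48.0% were positive and 4.45% had that p on the higher side. Among the 631 tested genes with principal transcripts as long as those of the 10 subunits, 79.7% were positive and 68 had that p on the higher side. None of the genes of these complexes passed edgeR's adjusted p. DESeq2 put 1 gene of complex III, 1 of ATP synthase and 0 of complexes I and IV past an adjusted p of 0.05. Of all genes with an adjusted p in DESeq2, 4.64% passed. With the length trend removed the medians were 0.18, 0.19 and 0.27 for complex I, complex III and ATP synthase, beside 0.10 for complex IV, and without wild type replicate 2 they were 0.27, 0.24 and 0.25, beside 0.15. No test of a difference between the complexes was made.

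Markers of other cells were also measured in the same libraries. The 10 neutrophil markers, led by S100a9, summed to between 79.9 and 703 CPM in Lama4-/- and between 29.6 and 112 CPM in wild type. Of these, 9 of 9 tested had a positive log2 fold change, against 48.0% of all tested genes. The 9 erythroid markers, led by Hbb-bs, summed to between 1429 and 3956 CPM in Lama4-/- and between 287 and 1778 CPM in wild type. All 9 were positive, against the same 48.0%. The 8 macrophage markers, led by Lyz2, summed to between 61.7 and 111 CPM in Lama4-/- and between 23.1 and 46.5 CPM in wild type. Lyz2 alone was at 88.65, 74.0 and 36.45 CPM in Lama4-/-, against 20.3, 11.5 and 18.7 CPM in wild type. Of 6 macrophage markers tested, 5 were positive, against 48.0% of all tested genes, and Cd68 was at -0.44. Every Lama4-/- library lay above every wild type library in 2 neutrophil, 1 erythroid and 4 macrophage markers of those tested. This pattern was shown by 10.3% of all tested genes. Adgre1, a macrophage marker that was not tested, had 1, 2 and 0 counts in Lama4-/- and 1, 3 and 106 in wild type. Mrc1, a macrophage marker, had 2, 0 and 0 counts in the Lama4-/- libraries and 0 in each wild type library. Endothelial markers, led by Egfl7, summed to 1.6 CPM at most in Lama4-/- and 8.64 CPM at most in wild type. Cdh5 and Tek had 0 counts in all Lama4-/- libraries. In the wild type libraries Cdh5 had 12, 2 and 29 counts and Tek 22, 0 and 0. The 3 lymphoid markers in the table, led by Ighm, reached 14.2 CPM in Lama4-/- and 9.72 CPM in wild type. The part of the neutrophil, erythroid and macrophage transcripts in the values of the subunits was not tested. In bulk samples such as these, fewer cells of a type and less RNA per cell cannot be told apart.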

How the data were processed

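RNA was amplified with SMART-Seq v4, made into Nextera XT libraries and read as 75-base single ends, per the labels' protocols. This full-length kit does not mark strand. The submitters' processing notes name STAR 2.6.1d, featureCounts, Subread, DESeq2, FastQC 0.11.8 and MultiQC 1.7, with GRCm38 as the build, and give no parameters. In the 1 table the authors deposited, the block headed normalized holds whole numbers (100% of cells) and was used as raw counts. The block headed raw is a deposited signal, those counts times a constant for each library (0.708 to 1.98), and was not tested. The deposited log2 fold change and the deposited p-value with its adjusted form come from the authors' DESeq2 Wald test, per the file headers.

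Of 25491 genes, 14465 passed edgeR's filterByExpr and were compared, 3 Lama4-/- against 3 wild type libraries, with TMM scaling and the robust quasi-likelihood F test (edgeR 4.0.16, R 4.3.3), adjusted by Benjamini-Hochberg over all tested genes. Level per length is CPM over the principal transcript (GENCODE M21). For the length alternative, the lowess trend (span 0.3) of log2 deviations over log10 longest transcript, fitted library by library, became the offset. DESeq2 1.42.0 and limma 3.58.1 were alternatives. Libraries of the same genotype differed beyond counting noise (lowest chi-square per gene 47.5). The fits were tested on simulated data first. Other alternatives were scaling, filters, the replicate block and leaving out each library. The subunits, lists and tests were chosen with earlier results of these data known. The named genes are the 10 members, the isoforms, mt-Co1 and cytochrome c genes, the 2 smallest p in each direction of the assembly, regulator and import lists at a mean of 5 CPM or more, the 5 nearest profiles, and the most abundant gene of each marker list. Overlapping genes were named because of their position.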

Additional observations from a re-analysis of the deposited data

How the results depend on the processing

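The count of genes past an adjusted p of 0.05, 1 with all libraries in edgeR, was 0 with upper-quartile scaling (1955 genes at an unadjusted p under 0.05), limma voom (2302), no robust moderation (1874), the replicate block (1930), the length trend removed (1173), both together (1209) and the length trend of the principal transcript removed (1174), an alternative chosen after seeing the data. It was 12 without a filter and 741 with DESeq2, and 0 to 1 with each library left out (1184 to 2376 at an unadjusted p under 0.05). Of the 10 subunits, 0 passed under any of the 18 alternatives, with adjusted p-values from 0.177 to 0.995. Their median log2 fold change was 0.15 to 0.59 with each library left out, lowest without wild type replicate 2 and highest without wild type replicate 1, where 3 subunits had an unadjusted p under 0.05. Of 180 values of single subunits under an alternative, 9 changed sign, all of Cox5b or Cox8a. Cox5b was at -0.014 with limma voom, -0.24 with the length trend removed, -0.22 with the replicate block added, -0.23 on the principal transcript and -0.14 without wild type replicate 2, the lowest of its values of -0.14 to 0.327 with a library left out. Cox8a was at -0.17, -0.16 and -0.16 in the 3 length fits and -0.063 to 0.409 with a library left out, lowest without wild type replicate 2. The cause was not tested. The labels do not say whether the replicate numbers pair the libraries. Same-numbered libraries correlated at 0.04, 0.13 and 0.05 in their deviations from the group means. Each library correlated best with its own number, which is a hint from the data and not the design. The block moved the median of the 10 subunits to 0.44 and its count at an unadjusted p under 0.05 to 3. Cox7c, with 30 to 174 counts a library, is the member that depth limits most.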

Other observations

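Other rows of the table that share sequence with the subunits were counted in their own right. Cox6c2, whose transcript shares windows with Cox6c, was at 6.45 ± 0.309 CPM in Lama4-/- and 5.49 ± 2.53 CPM in wild type (SD, n = 3 each). Gm12338, which shares windows with Cox7c, was at 7.54 ± 1.53 CPM in Lama4-/- and 9.40 ± 3.73 CPM in wild type, beside 8.89 ± 2.13 CPM in Lama4-/- and 6.42 ± 1.12 CPM in wild type for Cox7c itself (SD, n = 3 each), so the Lama4-/- mean was the lower in Gm12338 and the higher in Cox7c. The groups of all 3 genes overlapped.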
